A study of Mus musculus with 24 samples.

Results

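The genes described here encode the neuronal-type subunits of the mouse nicotinic acetylcholine receptor, namely Chrna3, Chrna4, Chrna5, Chrna6, Chrna7, Chrna9, Chrna10, Chrnb2, Chrnb3 and Chrnb4. Members were all probe sets that the array annotation assigned to 1 of these 10 symbols and to no other gene, and 21 of 45101 probe sets met this rule. They covered 9 of the 10 genes. Chrna3, Chrna4, Chrna9 and Chrnb2 had 3 probe sets each, Chrna5, Chrna6, Chrna7 and Chrnb4 had 2 each, and Chrnb3 had 1. No probe set carried Chrna10 as its only symbol, so the α10 partner of α9 was not analysed here.

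Nicotinic receptors are pentameric channels that open when acetylcholine binds at the face of an α subunit, and the subunits in the ring set how much calcium passes. In the cochlea the α9 and α10 subunits form the receptor at the synapse between medial olivocochlear efferent fibers and hair cells, where calcium entry opens SK2 potassium channels and the hair cell hyperpolarizes. The other members are best known from neurons. The α4 and β2 subunits form the main heteromeric receptor of the brain, α7 forms homomeric channels with high calcium permeability, and α3 with β4 forms the fast receptor of autonomic ganglia.

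RNA came from whole cochleae of α9−/− and wild type mice at P3 and P7, before hearing, at P13, around its onset, and at P60, when the cochlea is mature. Each of the 8 groups held 3 arrays, and each array carried RNA pooled from 3 to 5 mice, so the p-values measure the spread between pools. The number of mice is that of the design text; the methods count cochleae instead, with fewer in a pool at P13 and P60, so the mice behind an array may differ with age. Both genotypes were of a 129S6 x CBA/CaJ hybrid strain bred back toward CBA/CaJ over at least 7 generations, no mouse was treated, and α9−/− mice lacked a functional Chrna9 gene constitutively, in every cell and at every age. The methods state that the auditory nerve and fragments of cerebellum were removed during dissection. Among hair cell markers, Otof, which encodes otoferlin of the hair cell synapse, had log2 signals of 7.16 to 8.47 and Myo7a, a hair bundle myosin, 6.99 to 8.69 over the 24 arrays. Slc26a5, which encodes prestin, the motor of outer hair cells, stayed between 4.0 and 5.45. The guide to background described below lay at 5.73, above Slc26a5 on every array. Pou4f3, another marker of the list, ranged from 2.87 to 6.64 with a median of 5.45. Hair cells are few in this tissue, and in RNA of whole organs fewer cells of a type and less RNA per cell cannot be told apart.

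Values were log2 signals, and the median of an array was between 6.49 and 6.89. The mean correlation of an array with the others of its group ranged from 0.934 to 0.978. In 5 arrays the 3′ control of Gapdh exceeded the 5′ control by at least 6.30, against at most 2.43 in the rest. These were α9−/− replicate 2 and wild type replicate 1 at P3, wild type replicates 1 and 2 at P13, and wild type replicate 1 at P60. Olfactory receptor genes, which the cochlea is not known to use, served as a guide to background: the 95th percentile of their 43 probe sets lay at 5.73. Only 4 of the 21 members had a mean above it, namely 1 probe set each of Chrna4 (6.23), Chrna6 (6.45), Chrnb2 (6.68) and Chrnb4 (5.76). The mean signal of 20 of the 21 was also below the median probe set, at 6.65. Most of the levels given here are therefore dim, and a difference of the size of the spread between pools was not detectable.

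The deleted gene was examined first. Chrna9 (gene 231252; chromosome 5, 65934854 to 65977486, GRCm38.p6) encodes the α9 subunit, and none of its 3 probe sets separated the genotypes at every age. Probe set 1430086_at had log2 signals of 5.37, 5.94 and 4.99 in α9−/− and 5.44, 5.40 and 5.31 in wild type arrays at P3. At P7 it had 5.59, 5.24 and 4.99 in α9−/− and 5.30, 5.21 and 4.91 in wild type arrays. At P13 it had 5.56, 5.34 and 5.38 in α9−/− and 5.80, 5.36 and 5.28 in wild type arrays. The genotypes overlapped at these 3 ages. At P60 the values were 5.28, 5.35 and 5.27 in α9−/− and 6.33, 5.73 and 5.61 in wild type arrays. Every α9−/− array was below every wild type array, with a difference of −0.59 (SE 0.25, limma adjusted p = 0.885). The highest value, 6.33, came from wild type replicate 1, 1 of the 5 arrays with a weak 5′ Gapdh control. Under 14 alternatives of processing the P60 difference ranged from −0.73 to −0.37. Averaged over the 4 ages the difference was −0.09 (SE 0.11, limma adjusted p = 0.745).

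The other Chrna9 probe sets each separated the genotypes at another age. For 1447214_at at P13 the signals were 4.15, 3.72 and 3.60 in α9−/− and 5.08, 4.53 and 4.64 in wild type arrays. This difference of −0.93 (SE 0.23) had the smallest adjusted p of any member at any age, 0.0631 in limma, and missed the threshold. It was called with poly-A controls as a block and with array weights, at −0.93 and −0.82. Wild type replicates 1 and 2 of this P13 comparison had a weak 5′ Gapdh control. For 1445615_at at P3 the signals were 3.68, 4.14 and 3.92 in α9−/− and 4.18, 4.35 and 4.38 in wild type arrays. Both of these probe sets lay below the 95th percentile of olfactory receptors on every array, and all other age groups of both overlapped between genotypes. Where the probes lie relative to the deleted part of Chrna9 was not analysed here, so a signal in α9−/− cochleae says nothing about a functional transcript and this gene does not check the labels.

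**Figure D1:**
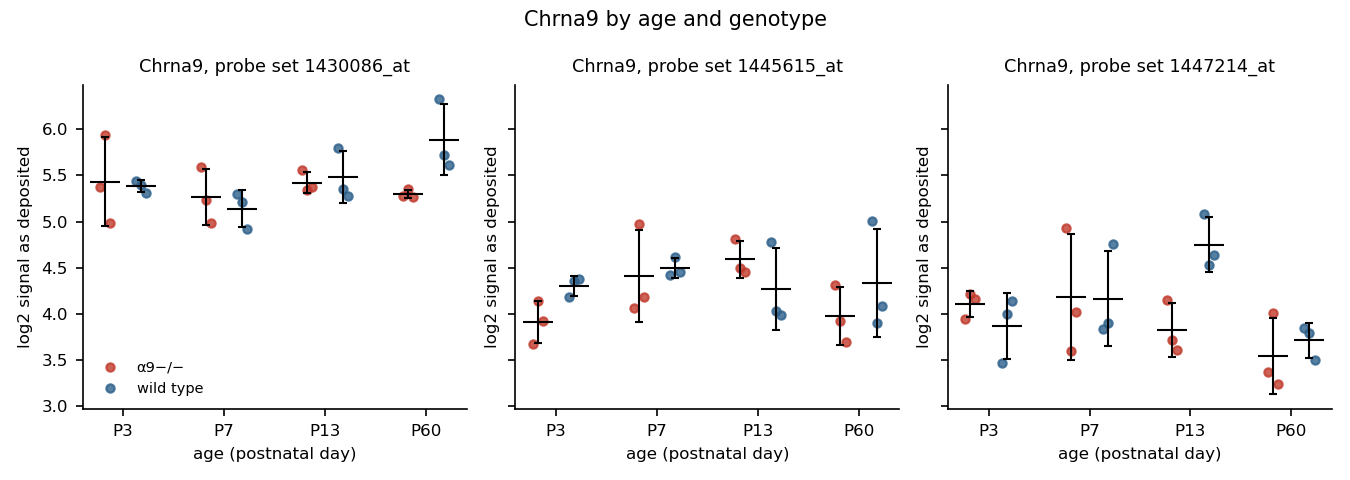
Log2 signal as deposited (y axis) of the 3 Chrna9 probe sets at each age (x axis), with 1 point for each array, α9−/− in red left of wild type in blue, and black bars for the mean ± SD (n = 3). The α9−/− points lie below all wild type points for 1430086_at at P60, for 1445615_at at P3 and for 1447214_at at P13, and the genotypes overlap in the other 9 combinations of age and probe set.

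No other member differed between genotypes past the threshold either. At an adjusted p under 0.05 over all probe sets, limma called 0 of the 21 members at P3, P7, P13 and P60, where 0%, 0.00443%, 5.45% and 0% of all probe sets were called. At an unadjusted p under 0.05 it gave 2 members at P3, 0 at P7, 3 at P13 and 0 at P60, against 1.94%, 1.59%, 27.4% and 5.14% of all probe sets. The smallest adjusted p of a member was 1.0 at P3 and at P7, 0.0631 at P13 and 0.885 at P60. Averaged over the ages, 0 of 21 members were called, against 0.0843% of all probe sets, and the smallest adjusted p was 0.469. The 95% interval of a member's difference before adjustment reached a median of 0.60 to either side at P3, 0.55 at P7, 0.60 at P13 and 0.68 at P60.

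The largest difference of a member was that of Chrna7 at P3. Chrna7 (gene 11441; chromosome 7, 63098692 to 63212526) encodes the α7 subunit. Its probe set 1440681_at had signals of 6.39, 6.76 and 6.40 in α9−/− and 5.39, 5.44 and 5.29 in wild type arrays at P3. All α9−/− arrays were above all wild type arrays, by 1.14 on average (SE 0.20, limma adjusted p = 1.0). At the other ages the differences were −0.04, −0.63 and 0.28 and the genotypes overlapped. The second probe set of the gene, 1450299_at, ran the other way at P3, with 4.49, 3.93 and 4.73 in α9−/− and 5.06, 4.93 and 4.91 in wild type arrays, a difference of −0.58 (SE 0.25, limma adjusted p = 1.0). The probe sets of this gene therefore disagree on the genotype at P3.

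Markers of forebrain neurons moved with the first of these probe sets. Over 6 measured genes of that list, among them Camk2a, Gad1 and Gad2, the mean signal at P3 was 6.49, 7.58 and 6.70 in α9−/− and 6.0, 6.10 and 5.76 in wild type arrays, again without overlap. None of the 6 was called between genotypes at P3 (limma, median difference 0.90), where 0% of all probe sets were called. The part of these markers in the Chrna7 difference was not tested.

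Arrays of the genotypes did not overlap for 5 of 21 members at P3, 1 at P7, 3 at P13 and 3 at P60, where 5.76%, 4.48%, 33.6% and 10.9% of all probe sets did not overlap. At P3 these included Chrna5 1442035_at, for an accessory subunit that does not bind acetylcholine by itself, with 4.07, 4.31 and 4.48 in α9−/− and 3.65, 3.96 and 3.62 in wild type arrays. The α9−/− arrays were all higher, by 0.55 (SE 0.21, limma adjusted p = 1.0), and the values lie among those of olfactory receptor probe sets. For 2 members, Chrna7 1450299_at and Chrna6 1450426_at, the arrays did not overlap in opposite directions at 2 ages, as for 2.3% of all probe sets.

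At P13 the members leaned to lower signal in α9−/− cochleae, as did the array as a whole. Of the 21 probe sets 18 were lower, with a median difference of −0.28, while 64.0% of all probe sets were lower, with a median of −0.16. Chrna6 1450427_at, for a subunit best known from dopamine and retinal neurons, had 6.14, 6.60 and 6.76 in α9−/− and 7.18, 7.00 and 6.87 in wild type arrays (difference −0.51, SE 0.21). Chrnb4 1425849_at, for the β4 subunit of ganglionic receptors, had 6.02, 5.72 and 5.82 in α9−/− and 6.49, 6.30 and 6.13 in wild type arrays (difference −0.45, SE 0.18). Neither pair of groups overlapped, and neither difference was called. That of Chrnb4 was called under 1 of 14 alternatives of processing (limma adjusted p = 0.0184). When the 2 wild type arrays with a weak 5′ Gapdh control were removed, which left 1 wild type array and so no test, 13 of 21 members were lower at P13, with a median of −0.28, against 60.3% of all probe sets. Autonomic neuron markers were also lower at this age, with a mean over 7 genes of 6.0, 6.04 and 5.76 in α9−/− and 7.07, 6.58 and 6.71 in wild type arrays. With all arrays kept, 3 of the 7 were called lower, where 5.45% of all probe sets were called. Wild type replicates 1 and 2 of this comparison are those with the weak 5′ Gapdh control. Their part in the Chrnb4 difference was not tested.

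**Figure D2:**
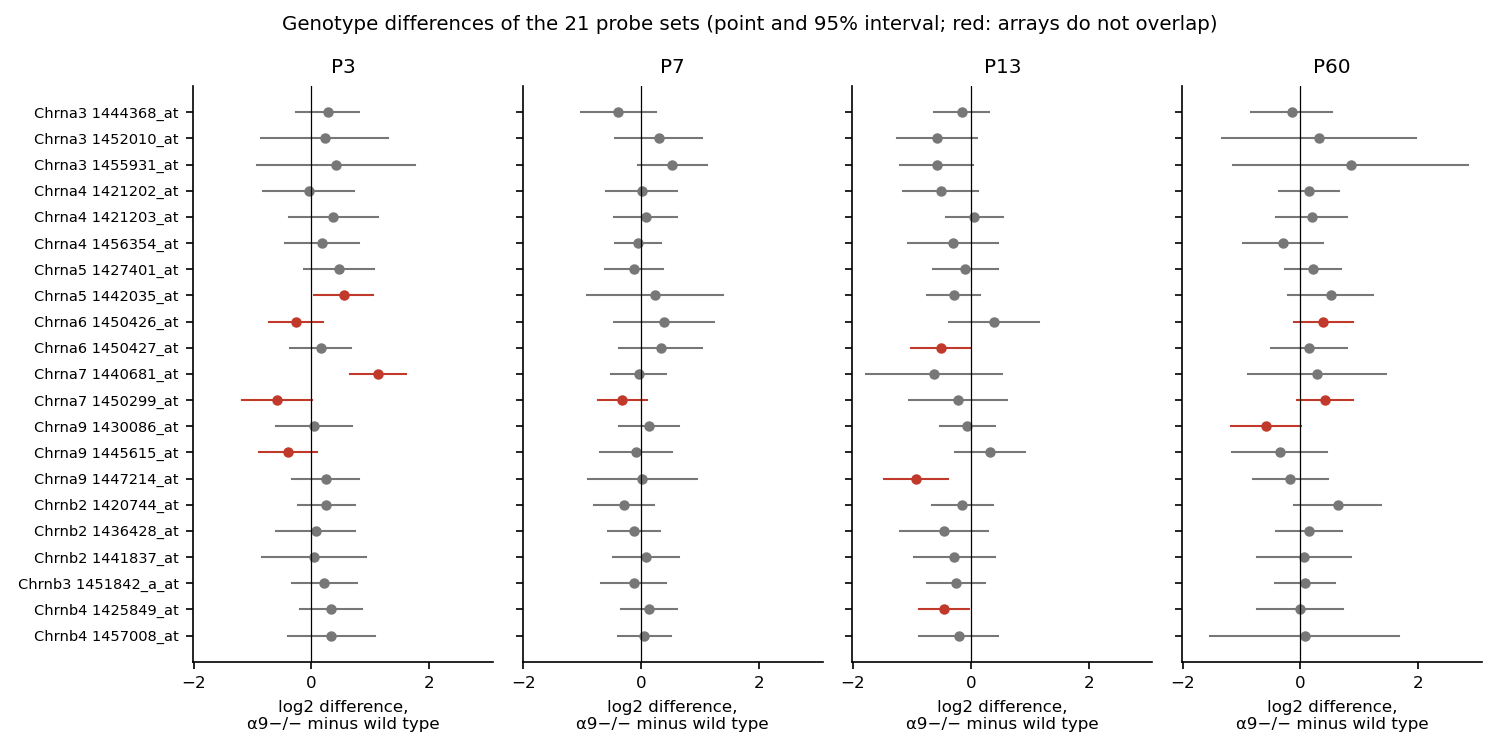
Difference in log2 signal, α9−/− minus wild type (x axis), of the 21 probe sets (rows) at each age (panels), with points for the difference and lines for its 95% interval from limma. Red marks members whose arrays do not overlap between genotypes, 5 at P3, 1 at P7, 3 at P13 and 3 at P60, and the largest difference is that of Chrna7 1440681_at at P3, 1.14.

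With age, 1 probe set each of Chrna7 and Chrnb2 changed. For comparisons over age the 24 arrays were brought to a common scale by quantile normalization, and the values that follow are log2 signals on that scale. In a test over the 4 ages limma called 2 of the 21 members, against 38.8% of all probe sets. The members were Chrna7 1440681_at (adjusted p = 1.31e-05) and Chrnb2 1436428_at (adjusted p = 7.38e-05). The range of the 4 age means had a median of 0.35 over the members and 0.57 over all probe sets. Between neighbouring ages, 1 member was called lower at P7 against P3, 1 higher at P13 against P7 and 2 higher at P60 against P13, where 4%, 9.32% and 9.68% of all probe sets were called in that direction. At P60 against P3, 1 member was called higher, against 12% of all probe sets. Within α9−/− arrays 1, 0, 2 and 2 members were called at P7 against P3, P13 against P7, P60 against P13 and P60 against P3, where 1.21%, 2.94%, 7.27% and 14.3% of all probe sets were called. Within wild type arrays 0, 0, 0 and 1 were called in the same steps, against 0.996%, 14.2%, 12% and 13.7% of all probe sets.

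Chrna7 1440681_at was lowest at P7 and highest at P60. At P3 it had 6.52, 6.90 and 6.49 in α9−/− and 5.49, 5.60 and 5.42 in wild type arrays. At P7 it had 4.11, 4.49 and 4.10 in α9−/− and 4.46, 4.05 and 4.40 in wild type arrays, all below every P3 array. At P13 the values were 4.06, 5.91 and 5.13 in α9−/− and 5.22, 5.23 and 6.35 in wild type arrays, a wide spread that reached down to the P7 level in α9−/− replicate 1. At P60 they were 6.80, 7.41 and 6.67 in α9−/− and 7.81, 6.69 and 5.72 in wild type arrays. The age means were 6.07, 4.27, 5.31 and 6.85 at P3, P7, P13 and P60. The signal fell by 1.80 at P7 against P3 (SE 0.31, limma adjusted p = 0.00138). It rose by 1.05 at P13 against P7 (SE 0.31, limma adjusted p = 0.0278) and by 1.53 at P60 against P13 (SE 0.31, limma adjusted p = 0.00146). The difference between P60 and P3, 0.78 (SE 0.31), was not called (limma adjusted p = 0.0763). Every P7 array lay near the median olfactory receptor probe set, at 4.45, so the P7 level cannot be told from background and the fall of 1.80 may understate the change. The P60 against P3 difference was called under 5 of 36 alternatives, with adjusted p of 0.0134 without wild type replicate 3 of P60, 0.0479 without α9−/− replicate 1 of P13, 0.0141 without replicate 3 of both genotypes at P60, 0.0416 on the values as deposited and 0.0267 with array weights (limma). The rise at P13 is the least firm of these steps: leaving out any of 6 single arrays of P7 or P13 (α9−/− replicates 1 and 3 and wild type replicate 2 at P7, α9−/− replicates 2 and 3 and wild type replicate 3 at P13) took its adjusted p to between 0.0526 and 0.0878. When all 5 arrays with a weak 5′ Gapdh control were removed, the rise at P60 against P13 was 0.89 (limma adjusted p = 0.0738).

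Within each genotype the difference at P7 against P3 was −2.4 in α9−/− (SE 0.44, limma adjusted p = 0.0101) and −1.20 in wild type cochleae (SE 0.44, limma adjusted p = 0.262), and the test of genotype by age for this probe set gave an adjusted p of 0.84. That test called 0 of the 21 members, with a smallest adjusted p of 0.82, 0 members at an unadjusted p under 0.05, and 0.00443% of all probe sets called. The second probe set of Chrna7, 1450299_at, did not follow: its age means were 4.79, 5.10, 5.09 and 5.09 (limma adjusted p = 0.388 over age). In α9−/− cochleae alone it was 0.84 higher at P60 than at P3 (SE 0.26, limma adjusted p = 0.0372), and in wild type cochleae the difference was −0.24 (SE 0.26, limma adjusted p = 0.638).

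Chrnb2 1436428_at was the brightest member and was highest at P60. Chrnb2 (gene 11444; chromosome 3, 89753448 to 89764632) encodes the β2 subunit, the partner of α4. Its signals were 6.28, 7.12 and 6.60 in α9−/− and 6.81, 6.65 and 6.27 in wild type arrays at P3. At P7 they were 6.36, 6.10 and 5.85 in α9−/− and 6.30, 6.33 and 6.08 in wild type arrays. At P13 they were 5.73, 6.76 and 6.02 in α9−/− and 6.29, 6.92 and 6.83 in wild type arrays, and the genotypes overlapped at each of these ages. At P60 they were 7.95, 7.55 and 7.19 in α9−/− and 7.45, 7.36 and 7.48 in wild type arrays, all above every array of the younger ages. The age means were 6.62, 6.17, 6.43 and 7.50. The signal rose by 1.07 at P60 against P13 (SE 0.19, limma adjusted p = 0.000415) and by 0.88 at P60 against P3 (SE 0.19, limma adjusted p = 0.00165). The steps before P13, −0.45 and 0.26, were not called (limma adjusted p = 0.181 and 0.408). The other Chrnb2 probe sets, 1420744_at and 1441837_at, had age means that spanned 0.25 and 0.19 and were not called over age.

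The promoters of both genes are printed here because theirs are the members that changed with age. They are the 250 bases before the start that the promoter table gives for each gene, 5′ to 3′ on the gene's strand, from RefSeq on GRCm38.p6, at chr7:63212527-63212776 (minus strand) and chr3:89764633-89764882 (minus strand), with capitals for the GC box GGGCGG or its reverse complement CCGCCC. A promoter was found for 8 of the 10 genes.
Chrna7: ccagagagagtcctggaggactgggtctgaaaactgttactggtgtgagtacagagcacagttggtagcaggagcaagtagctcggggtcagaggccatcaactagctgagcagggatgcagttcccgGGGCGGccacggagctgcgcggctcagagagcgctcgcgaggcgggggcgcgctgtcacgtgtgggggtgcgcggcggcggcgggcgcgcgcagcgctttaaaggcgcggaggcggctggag
Chrnb2: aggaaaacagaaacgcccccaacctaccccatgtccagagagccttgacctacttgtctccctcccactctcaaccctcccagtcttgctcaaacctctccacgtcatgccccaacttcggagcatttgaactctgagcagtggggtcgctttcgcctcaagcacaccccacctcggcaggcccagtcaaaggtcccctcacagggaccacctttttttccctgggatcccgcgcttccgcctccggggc
Chrna7 has 1 GC box and Chrnb2 has 0 in these bases, while 32.7% of 32851 promoters of this length hold at least 1. The E box CANNTG, which reads the same on both strands, occurs 2 times in Chrna7 and 1 time in Chrnb2, and 66.2% of promoters hold it. A TATA box, TATAAA or TTTATA, occurs in neither, and 12.4% of promoters hold one. The promoter of Chrna9 (chr5:65966874-65967123, plus strand), shown for the deleted gene, has 0 GC boxes and 2 E boxes. It precedes the start given in the table, which lies inside the outer bounds of the Chrna9 locus given above.
Chrna9: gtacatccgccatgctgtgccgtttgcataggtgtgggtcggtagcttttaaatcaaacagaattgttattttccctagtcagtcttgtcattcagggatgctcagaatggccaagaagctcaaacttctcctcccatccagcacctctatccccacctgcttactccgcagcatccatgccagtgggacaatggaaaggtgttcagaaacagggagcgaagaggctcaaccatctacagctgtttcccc

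Several lists of neuronal markers, and some of other cells, moved with Chrna7 and Chrnb2, while autonomic markers did so less. Over all probe sets, 4% were called lower at P7 against P3 and 9.68% higher at P60 against P13. Of 15 markers of spiral ganglion and other peripheral neurons, 5 were called lower at P7 against P3 and 11 higher at P60 against P13 (limma adjusted p under 0.05). Their mean signal ranged from 9.12 to 9.94 at P3, 8.24 to 8.90 at P7, 8.52 to 9.48 at P13 and 9.64 to 10.80 at P60. Of 11 measured cerebellar and hindbrain markers, 1 was called lower at P7 against P3 and 9 were called higher at P60 against P13. Their mean ranged from 6.71 to 7.53 at P3, 6.21 to 7.00 at P7, 5.98 to 9.02 at P13 and 7.56 to 11.1 at P60. Gabra6, a GABA receptor subunit of cerebellar granule cells, had signals from 3.34 to 12.2 over the arrays. Of 6 forebrain neuron markers, 3 were called lower at P7 against P3 and 3 higher at P60 against P13, with a mean of 5.91 to 7.66 at P3, 4.65 to 5.05 at P7, 4.79 to 6.57 at P13 and 6.32 to 7.76 at P60. Of 7 measured autonomic neuron markers, 2 were called lower at P7 against P3 and 1 higher at P60 against P13, with a median difference of 0.018 in the later step. Outside the neuronal lists, 2 of 12 skeletal muscle markers were called lower at P7 against P3 and 8 higher at P60 against P13. Of 9 supporting cell markers, 4 were called lower and 4 higher in the same steps. The cerebellar level varied within groups as well: at P60 it was 11.1, 10.7 and 9.10 in α9−/− and 9.79, 7.56 and 10.1 in wild type arrays.

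The age fits were repeated with the mean of a marker list as a covariate, a setting chosen after the values were seen. The lists changed with age themselves. Age means at P3, P7, P13 and P60 were 7.02, 6.42, 7.32 and 9.73 for cerebellar and 6.55, 4.86, 5.75 and 6.99 for forebrain markers. Such a covariate cannot be separated from age, so neither a kept nor a lost call shows the part of these cells. With cerebellar markers, Chrna7 fell by 1.71 at P7 against P3, which was called (limma adjusted p = 0.00427). Its rise at P60 against P13 was 1.15 (limma adjusted p = 0.207) and that of Chrnb2 was 0.61 (limma adjusted p = 0.236). Chrnb2 at P60 against P3 was 0.35 with this covariate and was not called (limma adjusted p = 0.594). With forebrain neuron markers, the difference of Chrna7 at P7 against P3 was −0.69 (limma adjusted p = 1.0) and at P60 against P13 it was 0.72 (adjusted p = 0.261). With the forebrain covariate Chrnb2 at P60 against P3 was called, at 0.64 (limma adjusted p = 0.00108), and at P60 against P13 it was 0.41 (adjusted p = 0.165).

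**Figure D3:**
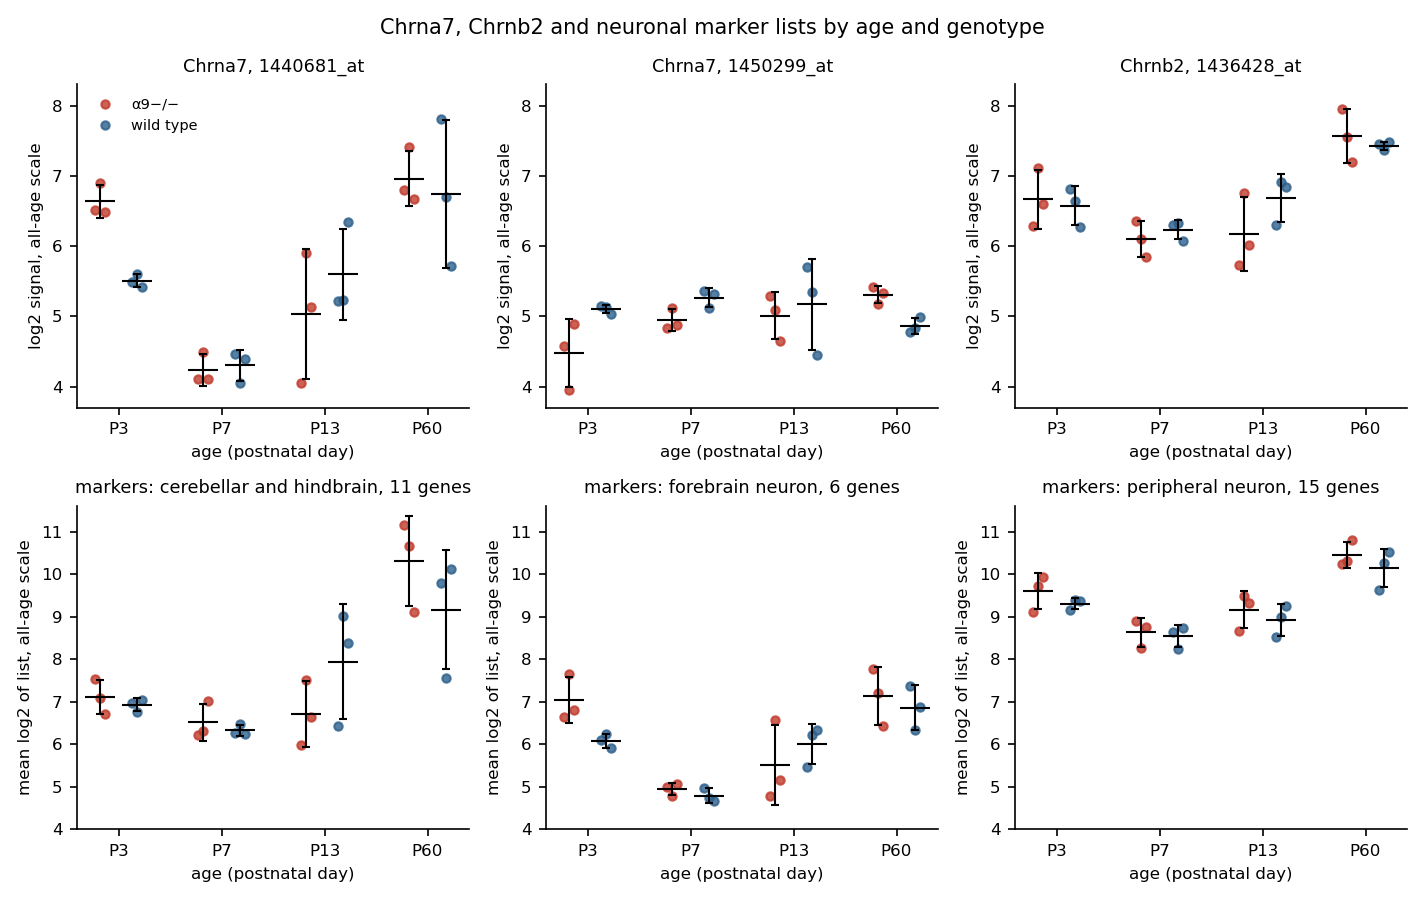
Log2 signal on the scale common to all ages (y axes) at each age (x axes) for both Chrna7 probe sets and Chrnb2 1436428_at (top), and the mean of the cerebellar, forebrain and peripheral neuron marker lists (bottom), with 1 point for each array, α9−/− in red left of wild type in blue, and bars for the mean ± SD (n = 3). Chrna7 1440681_at, Chrnb2 1436428_at and all 3 lists have their lowest age means at P7 and their highest at P60.

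The genes most like the 2 called members in profile over the 8 groups were found by the smallest root mean square difference between centred log2 group means, among 1 probe set for each gene. For Chrna7 they were Tac1, the precursor of substance P, at 0.15, 9330159F19Rik at 0.19 and Jakmip2 at 0.21, where Chrna7 itself had a root mean square of 1.01 around its own mean. For Chrnb2 they were Ap3b2, a neuronal adaptor protein subunit, at 0.09, Galnt9, a glycosyltransferase, at 0.09, and Rragd, a Rag GTPase, at 0.10, with 0.52 for Chrnb2 itself. These are descriptions over 8 means and carry no test.

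Chrna3 and Chrnb4 varied among P60 arrays more than between groups. They lie side by side with Chrna5 on chromosome 9, Chrna5 at 54980827 to 55011420, Chrna3 at 55010117 to 55026562 and Chrnb4 at 55028154 to 55048953, and encode subunits of the ganglionic receptor. At P60, on the deposited scale, Chrna3 1455931_at had 5.53, 4.74 and 7.33 in α9−/− and 4.28, 4.10 and 6.65 in wild type arrays. Chrna3 1452010_at had 6.07, 4.68 and 7.56 in α9−/− and 5.70, 5.18 and 6.50 in wild type arrays. Chrnb4 1457008_at had 4.59, 4.03 and 6.56 in α9−/− and 4.84, 4.29 and 5.84 in wild type arrays. In all 3, replicate 3 of each genotype was the highest of its group. Replicate 3 exceeded the other arrays of its group by more than 0.5 in both genotypes for these 3 of 21 members and for 3.26% of all probe sets. Chrna3 1444368_at and Chrnb4 1425849_at did not pass this margin, nor did either Chrna5 probe set. For 1425849_at replicate 3 exceeded the next array by 0.85 in α9−/− but did not exceed it in wild type arrays. It is the only Chrna3 or Chrnb4 probe set with a mean above the guide to background.

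Some markers of peripheral neurons, muscle and keratinocytes were also highest in these arrays. Prph, which encodes the neurofilament peripherin, had 8.29, 8.56 and 11.4 in α9−/− and 7.28, 8.94 and 10.8 in wild type arrays. Th, tyrosine hydroxylase of catecholamine neurons, had 6.57, 6.07 and 8.19 in α9−/− and 6.88, 6.17 and 7.77 in wild type arrays. Tubb3, a neuronal tubulin, had 8.42, 8.23 and 10.4 in α9−/− and 7.74, 8.96 and 9.95 in wild type arrays. The mean of 12 skeletal muscle markers was 8.34, 8.51 and 9.90 in α9−/− and 7.71, 8.39 and 10.3 in wild type arrays, and that of 8 keratinocyte markers was 5.44, 5.23 and 6.14 in α9−/− and 6.11, 5.47 and 7.82 in wild type arrays. Over whole neuronal lists the gap was smaller. The mean of 15 peripheral neuron markers was 10.1, 10.2 and 10.7 in α9−/− and 9.49, 10.1 and 10.4 in wild type arrays, and that of 7 autonomic markers was 6.17, 5.96 and 6.69 in α9−/− and 6.65, 5.82 and 6.68 in wild type arrays. Nefl, the light neurofilament chain, had 12.3, 12.6 and 12.9 in α9−/− and 13.1, 12.8 and 12.4 in wild type arrays, where replicate 3 was the lowest. The single markers named here were picked after their values were seen. The part of these cells in the Chrna3 and Chrnb4 signals was not tested. On the scale common to all ages, Chrna3 1452010_at was 1.06 higher at P60 than at P13 (SE 0.39), which missed the threshold (limma adjusted p = 0.06).

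The promoters of this pair, which stand on the minus strand at chr9:55026563-55026812 and chr9:55048545-55048794, are shown because some probe sets of both genes were high in the same arrays. The start used for Chrnb4 lies inside the outer bounds of that locus. Each holds 2 E boxes, and Chrna3 holds 1 GC box and Chrnb4 holds 0.
Chrna3: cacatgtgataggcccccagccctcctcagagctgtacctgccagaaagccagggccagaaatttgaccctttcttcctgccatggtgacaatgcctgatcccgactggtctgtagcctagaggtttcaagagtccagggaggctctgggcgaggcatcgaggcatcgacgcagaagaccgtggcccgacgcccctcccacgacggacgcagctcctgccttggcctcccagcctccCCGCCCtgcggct
Chrnb4: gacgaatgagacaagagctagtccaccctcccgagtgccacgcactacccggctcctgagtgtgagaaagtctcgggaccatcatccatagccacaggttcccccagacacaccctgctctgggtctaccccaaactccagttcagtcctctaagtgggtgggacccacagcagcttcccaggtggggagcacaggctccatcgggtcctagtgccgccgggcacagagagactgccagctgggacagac

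**Figure D4:**
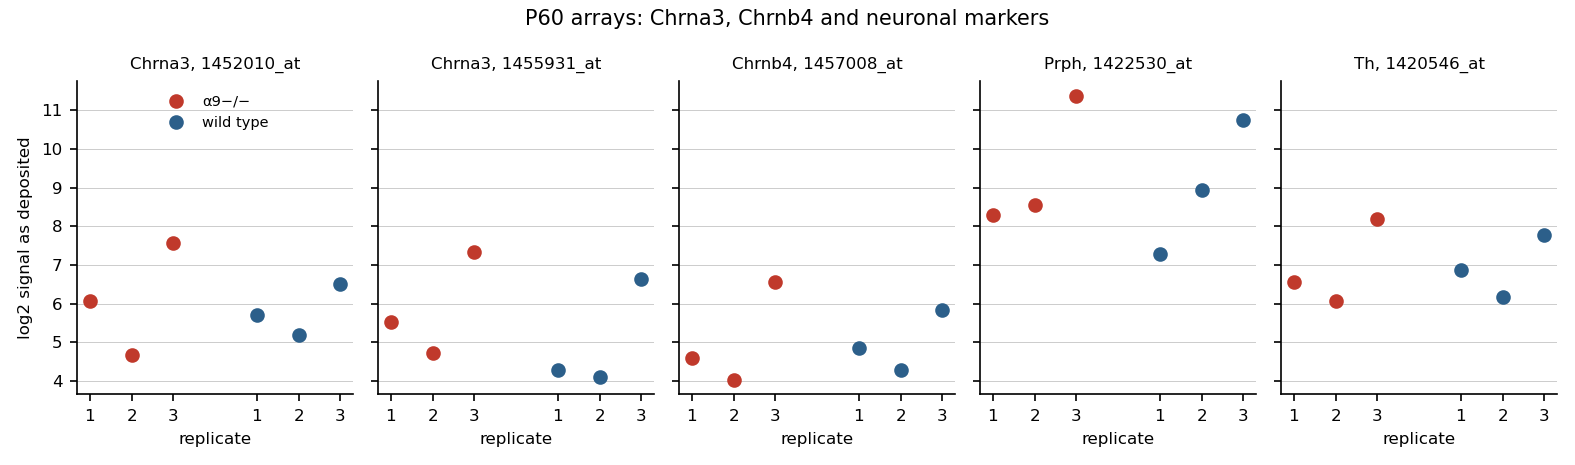
Log2 signal as deposited (y axis) in the 6 arrays of P60, by replicate number (x axis), α9−/− in red left of wild type in blue, for 2 probe sets of Chrna3, 1 of Chrnb4, and Prph and Th. Replicate 3 is the highest array of each genotype in all 5 panels, at 7.33 and 6.65 for Chrna3 1455931_at and at 11.4 and 10.8 for Prph. The panels were picked for this: the Chrna3 and Chrnb4 probe sets that did not pass the margin of 0.5 are not shown.

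The remaining members changed little. Chrna4, the α4 partner of β2 (chromosome 2, 181022311 to 181043579), had age means of 6.22, 6.42, 6.12 and 6.16 at its brightest probe set, 1421203_at, while Chrnb2 1436428_at was highest at P60. Chrna6 and Chrnb3 neighbour each other on chromosome 8, at 27403212 to 27413944 and 27368711 to 27399730, and their products share receptors in dopamine neurons. Chrna6 1450427_at had age means of 6.25, 6.56, 6.60 and 6.44 and Chrnb3 1451842_a_at had 5.37, 5.29, 5.14 and 5.17. Chrna5 1442035_at had 4.15, 3.54, 3.73 and 4.05. Chrna9 1430086_at had 5.54, 5.20, 5.26 and 5.67, and its differences over age just missed the threshold (limma adjusted p = 0.0607). None of the other 19 probe sets was called over age, and their age means spanned 0.16 to 1.06.

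Genes that work with these subunits were called mainly in comparisons of ages. Genotype tests used 6 arrays and age tests 24, so the counts of calls do not compare the sizes of the changes. Of 12 genes for receptor assembly and Ly6 family partners, 0 were called between genotypes at any age (limma, adjusted p under 0.05). The shares of all probe sets called between genotypes were 5.45% at P13 and at most 0.00443% at the other ages. At P60 against P13, 6 of the 12 were called higher, where 9.68% of all probe sets were. The largest of these rises were those of Ly6h (1.27, SE 0.39), Vsnl1 (1.27, SE 0.25) and Ric3 (1.05, SE 0.28). Ly6h and Lynx1 encode membrane-anchored proteins that damp nicotinic currents, Vsnl1 encodes visinin-like protein 1, which helps α4β2 receptors reach the surface, and Ric3 is a chaperone for α7. At P7 against P3, 3 of the 12 were called lower, Ly6h (−1.54), Lypd6 (−1.11) and Lypd6b (−0.97), where 4% of all probe sets were. At P60 against P13, 9 of 11 cerebellar and hindbrain, 11 of 15 peripheral neuron and 1 of 7 autonomic markers were also called higher. The part of these cells in the changes of the 12 genes was not tested.

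Of 12 measured genes of the efferent response of hair cells, 5 were called higher at P13 against P7, where 9.32% of all probe sets were. Among them Kcnn2, the SK2 channel that α9α10 receptors act through, rose by 1.53 (SE 0.25, limma adjusted p = 0.000271), Ryr2, a calcium release channel, by 1.77 and Atp2a3, a calcium pump of the reticulum, by 1.58. Kcnn2 rose again at P60 against P13, by 0.96 (SE 0.25, limma adjusted p = 0.00955). Its genotype differences were 0.44, −0.01, −0.30 and −0.19 at P3, P7, P13 and P60, and none was called. At P13 Orai1, a plasma membrane calcium channel, was the only gene of this list called between genotypes, where 5.45% of all probe sets were called. It was 1.05 higher in α9−/− cochleae (limma adjusted p = 0.0337). At this age wild type replicates 1 and 2 had a weak 5′ Gapdh control. Over 13 measured hair cell markers the median difference was −0.03 at P13 against P7 and 0.28 at P60 against P13. Over 11 measured cerebellar and hindbrain markers it was 1.22 and 2.54 in these steps. The part of either cell type in the rises of Kcnn2, Ryr2 and Atp2a3 was not tested.

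Of 7 genes for acetylcholine synthesis, transport and breakdown, 0 were called between genotypes at any age. The shares of all probe sets called were 5.45% at P13 and at most 0.00443% at the other ages. At P60 against P3 Slc5a7, the choline transporter, and Bche, butyrylcholinesterase, were each 0.74 lower (limma adjusted p = 0.00121 and 0.00394). In this step 13.3% of all probe sets were called lower. Chat, the synthetic enzyme, had a mean signal of 5.01, within the olfactory receptor range. None of the 3 measured muscarinic receptors was called in any comparison. Among all probe sets, 5.45% were called between genotypes at P13 and 12% higher at P60 against P3. Of the 6 other nicotinic subunits, which include those of muscle, Chrnb1 was called lower in α9−/− cochleae at P13 (−0.85, limma adjusted p = 0.0431). Of all probe sets 5.45% were called at P13, where wild type replicates 1 and 2 had a weak 5′ Gapdh control. At P60 against P3 Chrnb1 was 0.60 higher and Chrng, the fetal γ subunit, 0.72 lower. That is 1 of the 6 in each direction, against 12% of all probe sets called higher and 13.3% called lower. The mean of the skeletal muscle markers at P13 was 6.86, 6.86 and 6.72 in α9−/− and 8.45, 6.65 and 8.94 in wild type arrays, where wild type replicate 2 was below all α9−/− arrays. Of these 12 markers, 8 were called higher at P60 against P13, against 9.68% of all probe sets. Their part in the Chrnb1 signal was not tested.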

How the data were processed

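Array signals were deposited as log2 values. Per the methods, the authors used AffyPLM for RMA background correction, then quantile normalization and a Tukey biweight summary of each probe set. Distributions of arrays matched within ages better than across them, so genotypes were compared within an age on the deposited log2 values, and ages after quantile normalization over all 24 arrays. Tests used limma 3.58.1 (R 4.3.3) on all 45101 probe sets with Benjamini-Hochberg adjustment, and calls needed an adjusted p below 0.05. The genotype was tested with 6 arrays at each age, and ages in 1 fit of 8 groups. Lists used the probe set of highest mean for each gene. Members and lists were chosen with earlier results of these data known. All members were named, up to 3 called genes for each list, and the 3 genes most alike in profile. The code was checked on simulated data with 200 changed probe sets. Precision is limited by the 3 arrays in each group. The study's variance filter and fold threshold, other scalings, array weights, blocks and leaving out arrays were alternatives. Symbols came from the platform annotation, with 34958 probe sets of 1 symbol, positions and promoters from RefSeq on GRCm38.p6, and figures from matplotlib 3.10.9 (Python 3.11.15).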

Additional observations from a re-analysis of the deposited data

Results flagged for a closer look

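In 2 members every α9−/− array lay on one side of every wild type array at 1 age and on the other side at another age, as did 2.3% of all probe sets. Chrna7 1450299_at was lower in α9−/− cochleae by 0.58 at P3 (difference −0.58) and by 0.32 at P7 (difference −0.32), and higher by 0.42 at P60. The test of genotype by age for it gave a p of 0.0565 in limma and an adjusted p of 0.82. Chrna6 1450426_at had a difference of −0.26 at P3 and 0.39 at P60, with a limma adjusted p of 0.886 for genotype by age. Neither member was called at any single age.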

How the results depend on the processing

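Of the genotype counts, those at P3, P7 and P60 and over all ages stayed at 0 under every alternative run. At P13 the count of 0 became 1 with the replicate block and 1 with the poly-A controls as a block (Chrna9 1447214_at), and 5 with array weights. Genotype by age gave 0, and 4 with array weights. Over age the 2 called members became 6 on the values as deposited and 9 with array weights, 1 among probe sets above the median signal, and 1 with either the cerebellar or the forebrain neuron covariate. P7 against P3 gave 1, and 0 above the median signal, 2 with array weights, 0 in wild type arrays only and 0 with the forebrain covariate. P13 against P7 gave 1, and 2 as deposited, 0 above the median signal, 4 with array weights, 0 in α9−/− only, 0 in wild type only, 2 after removal of arrays with a weak 5′ Gapdh control, and 0 with either covariate. P60 against P13 gave 2, and 4 as deposited, 1 above the median signal, 4 with the replicate block, 5 with array weights, 0 in wild type only, 1 after removal of arrays with a weak 5′ Gapdh control, and 0 with either covariate. P60 against P3 gave 1, and 2 as deposited, 2 with array weights, 3 without replicate 3 of both genotypes at P60 and 0 with the cerebellar covariate.

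Leaving out 1 array at a time gave 2 to 3 over age, 1 to 2 at P7 against P3, 0 to 2 at P13 against P7, 2 to 4 at P60 against P13 and 1 to 2 at P60 against P3, and 0 to 0 in each genotype comparison and for genotype by age. The highest count, 4, came without α9−/− replicate 2 of P3, which added Chrna9 1430086_at and Chrna3 1452010_at. Chrna7 1440681_at was not tested above the median signal because its mean lies below it. Where not stated above, the cause of a changed count was not tested.

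Replicate numbers did not pair the arrays alike at every age. Of 12 same-numbered pairs 7 correlated above 0.1 in their deviations from group means, from −0.62 to 0.59. Only 4 of 12 α9−/− arrays correlated best with their own number. The same-numbered pairs of P13 correlated at 0.35, 0.15 and 0.03, and those of P3 at −0.49, −0.62 and 0.45. Of the 36 uncalled genotype differences of the brightest probe sets, 19 changed sign under some alternative. Those of Chrnb4 1425849_at and Chrna3 1452010_at at P13 were called under 1 alternative each (limma adjusted p = 0.0184 and 0.0236). Signals near those of olfactory receptors limit what can be said of Chrna3, Chrna5, Chrna7, Chrna9 and Chrnb3, none of which had a probe set with a mean above the 95th percentile of those receptors. The covariates and the fits without replicate 3 of both genotypes at P60 were chosen after seeing the data. Those arrays were left out because they were the highest for some Chrna3 and Chrnb4 probe sets, so a lower P60 value of these is built in.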

Other observations

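The deleted gene lies on chromosome 5, and 32 genes within 2 Mb of it had a probe set. Averaged over the 4 ages, 1 of these was called between genotypes, Gm3716 (chromosome 5, 64593863 to 64610699, GRCm38.p6), which was named after its values were seen, where 0.0843% of all probe sets were called. Its differences, α9−/− minus wild type, were −1.51, −1.18, −0.45 and −1.70 at P3, P7, P13 and P60, with a mean of −1.18 (SE 0.20, limma adjusted p = 0.0236). Chrna9 1430086_at had −0.09 over the same arrays. At P13 also 1 of the 32 was called, a share below the 5.45% of all probe sets called at that age. This gene, Tmem156 (chromosome 5, 65058215 to 65092181), was 1.41 lower in α9−/− cochleae (limma adjusted p = 0.015), and its differences were −0.17, −0.03 and −0.64 at P3, P7 and P60.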
